A study of Homo sapiens with 145 samples.

Results

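Ribosome biogenesis factors are the proteins that build ribosomes without being part of the finished particle. A list of 41 genes for such proteins was followed in the human fibrosarcoma cell line HT-1080, and 39 of the 41 were measured. A gene with several probe sets was represented by the one whose mean across the arrays was greatest, and a gene was kept where its log2 value was 4 or more in at least 5 arrays. All 39 were at 4 or more in all 145 arrays. The lowest mean belonged to RRP9, at 5.12. GNL3 and DDX18 were not analysed here, since no probe set was paired with either symbol alone. By role, 4 of the 39 belong to the small nucleolar ribonucleoproteins that modify rRNA, 15 to small subunit assembly, 11 to large subunit assembly (of 13 listed), 5 to RNA polymerase I transcription, and 4 are abundant nucleolar proteins.

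The arrays measured RNA after 24 h with methyl methanesulfonate (MMS, a DNA alkylating agent), quercetin (QUE, a plant flavonoid) or etoposide (ETP, a topoisomerase II poison). MMS was given at 1, 3, 10, 30, 100, 300 and 500 µM, QUE at 1, 3, 10, 30, 60, 80 and 100 µM, and ETP at 0.003, 0.01, 0.03, 0.1, 0.3, 1 and 3 µM. Each chemical had a vehicle group of its own, dosed with DMSO alone, and the chemicals were dissolved in DMSO at 0.1% of the medium, so every group carried the solvent. The cells grew in multiwell plates in serum-supplemented medium and were dosed a day after seeding. HT-1080 is 1 established tumour line, and the labels do not say whether the numbered replicates were separate cultures, so every p-value measures only the spread between these arrays, which may be technical.

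Ribosome assembly begins in the nucleolus, where RNA polymerase I transcribes a long precursor of the rRNAs. Small nucleolar ribonucleoproteins modify that precursor, and large complexes such as the small subunit processome fold and cleave it while ribosomal proteins are added. The MYC transcription factor is well known to drive many of these genes in growing cells, and many DNA-damaging drugs are known to disturb the nucleolus.

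All values below are log2 intensities, and changes are differences in log2 value, dosed minus vehicle of the same chemical. A gene was called at a dose where limma's adjusted p was under 0.05 over the 12070 genes tested and the fold was at least 1.5, which is 0.58 on the log2 scale. MMS groups held 6 arrays, except 5 at 500 µM. ETP and QUE groups held 5 numbered replicates each after the arrays numbered 2 were left out. Arrays of 1 group with the same number were averaged first. This applied to number 6 at 0.01 µM ETP and at 100 µM QUE, and to number 2 of the ETP vehicle. The arrays numbered 2 go against their labels. At 3 µM ETP the number 2 array minus its own vehicle gave -0.67 for POLR1B, while the other 5 pairs gave 0.05 to 0.23. At 100 µM QUE the number 2 pair gave 0.17 for POLR1B, while the other pairs lay between -1.40 and -0.62. The choice to leave them out was made from measured values, so ETP and QUE counts are given below also with these arrays kept. The array medians ranged from 3.51 to 3.59 in the ETP experiment, 3.08 to 3.17 in the MMS experiment and 3.33 to 3.41 in the QUE experiment, so levels were compared only within an experiment. Of 9 mesenchymal markers all were measured, with vehicle means from 3.59 (COL1A2, MMS) to 13.27 (vimentin, ETP). None of 6 epithelial markers exceeded 3.60 in any array, so the COL1A2 mean in the MMS vehicle arrays was no higher than that. Single COL1A2 values in those vehicle arrays ran from 3.27 to 4.17.

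Promoter sequence gave a feature that the choice of members had not used. RefSeq promoters (GRCh38.p14, 250 bases before to 50 after the start site) were at hand for 32 of the 39 members, matched by symbol. The E-box CACGTG, the letters that MYC and its partner MAX are known to bind, was searched on both strands, and being a palindrome it reads alike on each. It stood in 16 of the 32, or 50.0%, against 12.7% of the 9902 tested genes with a promoter and 8.77% of 27305 promoters. CCGGAAG, an ETS-type motif, was found in 34.4% of the members, against 22.6% of tested genes with a promoter. The NRF1-type motif, GCGCA followed by any base and GCGC, was found in 34.4% of the members, against 13.7% of those genes. CCGGAAG was in 12.2% and the NRF1-type motif in 6.98% of all promoters. Both were searched on both strands, and none of the motifs contains another. A match is a description of these letters and not a binding site. The windows around the E-box are shown for some of these members, 5′ to 3′ on the gene's own strand, with the E-box in capitals.
UTP20, chr12:101280083-101280112, plus strand: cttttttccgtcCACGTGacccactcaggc
UTP18 upstream copy, chr17:51260445-51260474, plus strand: gggagtgctggtCACGTGgcaagaggctgc
UTP18 copy past the start site, chr17:51260538-51260567, plus strand: gcagcgaggttcCACGTGagcgcctgcgtt
MYBBP1A, chr17:4555340-4555369, minus strand: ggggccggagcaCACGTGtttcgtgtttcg
BYSL, chr6:41921515-41921544, plus strand: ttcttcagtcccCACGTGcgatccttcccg
NOP2, chr12:6568242-6568268, minus strand: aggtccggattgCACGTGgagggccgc
WDR43, chr2:28894658-28894687, plus strand: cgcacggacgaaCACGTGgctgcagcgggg
FBL, chr19:39846356-39846385, minus strand: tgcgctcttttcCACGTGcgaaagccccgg
The E-box stood in genes of both directions. BYSL, NOP2 and WDR43 were 3 of the 10 members with a promoter that were higher at 500 µM MMS, and UTP20, UTP18 and MYBBP1A were 3 of the 6 that were lower at 100 µM QUE. UTP14A, the member called higher at 100 µM QUE, also held the E-box, and its window is not shown. UTP20 and UTP18, lower with both ETP and QUE, are shown further for the 150 bases before their start sites, again with the E-box in capitals.
UTP20, chr12:101279955-101280104, plus strand: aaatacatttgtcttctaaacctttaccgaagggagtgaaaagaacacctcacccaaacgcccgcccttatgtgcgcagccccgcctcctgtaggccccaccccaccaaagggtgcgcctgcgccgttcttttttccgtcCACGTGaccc
UTP18, chr17:51260396-51260545, plus strand: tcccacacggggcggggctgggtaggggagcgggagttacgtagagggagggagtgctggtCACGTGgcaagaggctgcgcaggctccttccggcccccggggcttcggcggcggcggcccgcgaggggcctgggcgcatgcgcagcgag
The UTP20 motif begins 10 bases before the start site, and the upstream UTP18 motif begins 89 bases before it.

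At the highest MMS dose many assembly factors were higher, among them UTP15, BYSL, NOP2 and RRP12. At 500 µM MMS 14 of 39 members rose and 0 fell, where 17.7% of all 12070 genes were called higher and 16.9% lower. The members' median change was 0.46, with 31 above 0 and 8 below, against a median of 0.05 over all genes. At 300 µM 4 members rose and 0 fell, where 4.46% of genes were called higher and 936 of 12070 lower. On adjusted p alone 19 members rose at 300 µM, against 19.6% of genes, and at 500 µM 27 rose and 4 fell, against 33.9% and 27.3% of genes. No member was called at 1, 3, 10 or 30 µM, where 0% of genes were. None was called at 100 µM either, where 1.61% of genes were called. An unadjusted p under 0.05 was reached there by 3 members and by 1985 of the 12070 genes. On adjusted p alone 0 members passed at 100 µM (4.08% of genes), and with the replicate number as a block, which pairs the arrays at this dose, 5 were higher and 1 lower (8.72% and 9.73% of genes). In bulk RNA such as this, a change in level per cell and a change in which cells are present cannot be told apart.

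**Figure D1:**
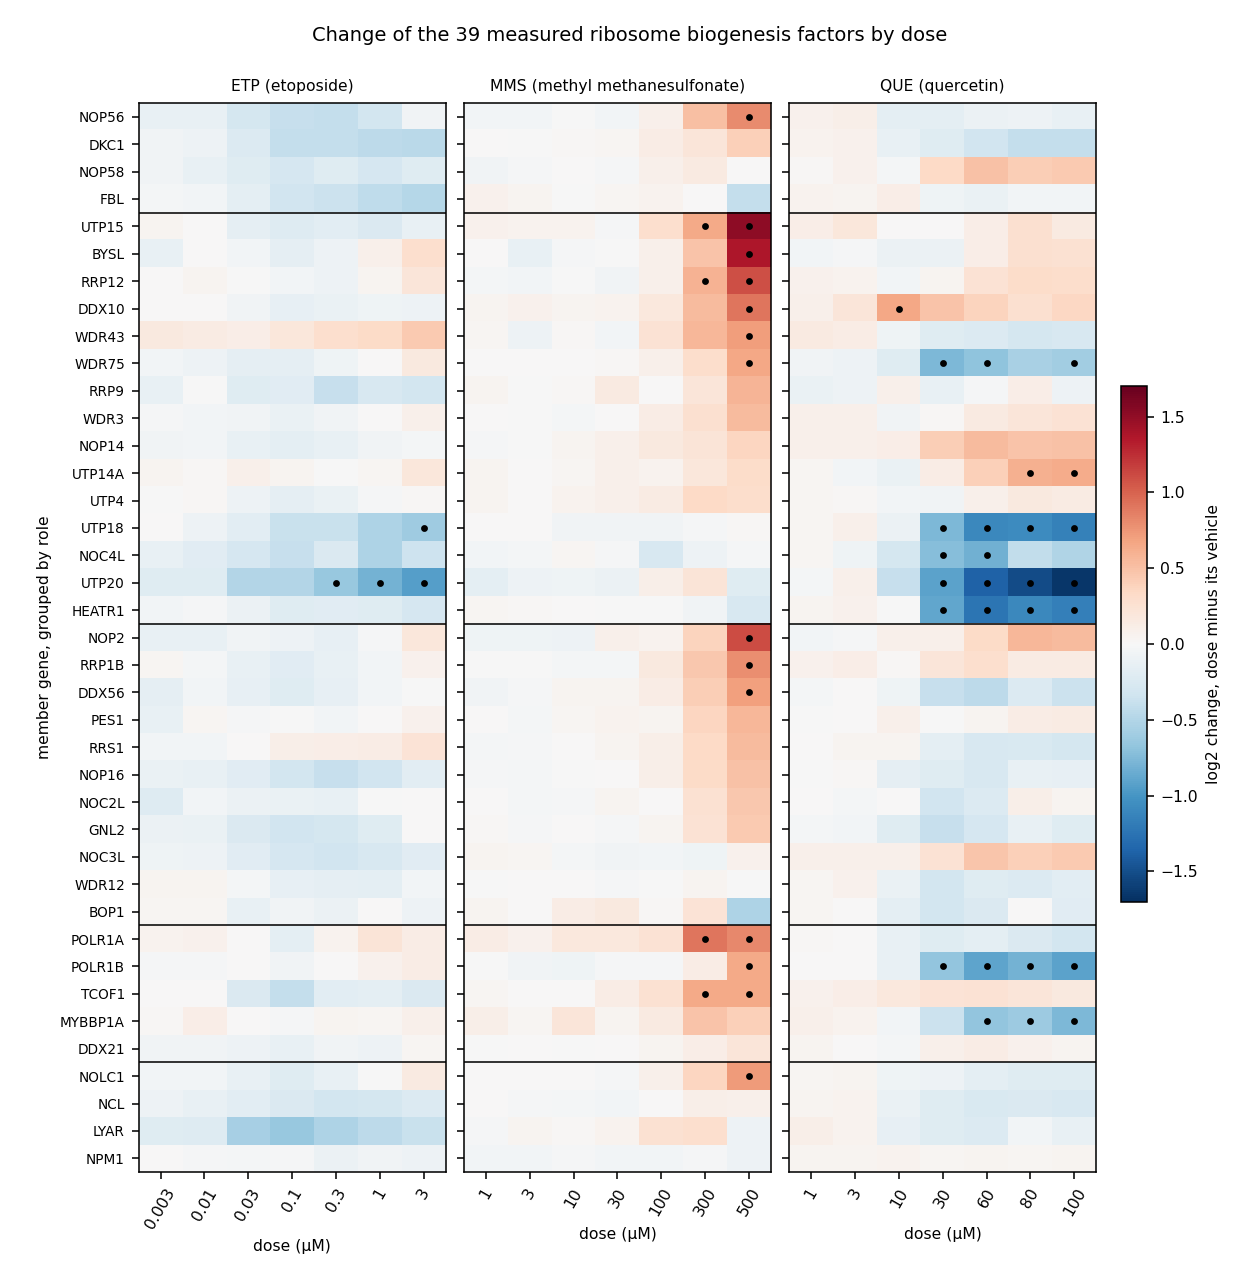
Change in log2 value of each of the 39 measured ribosome biogenesis factors (rows, grouped by role) at each dose (columns, in µM) of ETP, MMS and QUE, dosed minus vehicle of the same chemical, by colour, with marks on the called cells. At 500 µM MMS 14 cells are called higher and none lower, and at 100 µM QUE 1 is called higher and 6 lower.

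The 2 members with the largest changes at 500 µM MMS, UTP15 and BYSL, were small subunit factors, of which 6 of 15 rose. UTP15 is a subunit of the early processome complex that binds the start of the rRNA precursor and is also needed for rRNA transcription. Its values were 7.13, 6.81, 7.10, 7.31 and 7.51 at 500 µM MMS, against a lowest, median and highest of 5.12, 5.77 and 5.91 in the vehicle arrays. The groups did not overlap. UTP15 rose by 1.52 (SE 0.15), or 2.87-fold, with an adjusted p of 1.03e-11. It had risen by 0.65 at 300 µM (adjusted p = 0.000457; 0.52 and not called without number 5), and the step of 0.87 between the doses was itself called (adjusted p = 7.69e-06). The other probe set of UTP15, which averaged 4.27 over all arrays, gave 1.20 at 500 µM. BYSL, or bystin, helps shape the precursor of the small subunit. It had values of 8.26, 8.46, 8.49, 8.14 and 8.05 at 500 µM, against 6.45, 6.96 and 7.14 as lowest, median and highest in vehicle. All dosed arrays lay above all vehicle arrays, and BYSL rose by 1.38 (SE 0.12), or 2.60-fold, with an adjusted p of 8.25e-14. At 300 µM its change of 0.49 was under the fold limit, and the step between the doses was 0.89 (adjusted p = 3.34e-08).

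RRP12, known from yeast for the export and late maturation of the small subunit precursor, had values of 7.58, 7.76, 7.71, 7.42 and 7.46 at 500 µM MMS, against 6.10, 6.57 and 6.76 as lowest, median and highest in vehicle. It rose by 1.09 (SE 0.12, adjusted p = 1.62e-10) without overlap, though its other probe set gave only 0.29. DDX10, an RNA helicase of the processome, rose by 0.91 (SE 0.11), with values of 9.15, 9.33, 9.15, 9.37 and 8.97 at 500 µM against 8.09, 8.25 and 8.62 in vehicle. WDR75 and WDR43, both WD-repeat subunits of the same early complex as UTP15, rose by 0.66 and 0.71. WDR75 had 9.68, 9.67, 9.64, 9.87 and 9.66 at 500 µM, against 8.94, 9.05 and 9.16 in vehicle. These values are tight in both groups and lie well apart. Not every factor of the processome moved: UTP20, a very large scaffold protein, changed by -0.20 (adjusted p = 0.623) and UTP18, a subunit of another processome complex, by 0.02.

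Large subunit factors rose as well. NOP2, an rRNA cytosine methyltransferase needed for the large subunit, had 8.61, 8.58, 8.76, 8.83 and 8.55 at 500 µM MMS, against 7.16, 7.61 and 7.82 as lowest, median and highest in vehicle. The groups did not overlap, and NOP2 rose by 1.11 (SE 0.13), or 2.16-fold, with an adjusted p of 3.12e-10. Its step from 300 to 500 µM was 0.73 (adjusted p = 7.41e-06). RRP1B, an RRP1 family protein of large subunit processing, rose by 0.79, and DDX56, a helicase known from large subunit assembly, by 0.70. PES1, a subunit of the PeBoW complex, missed the call at 0.57, just under the fold limit. BOP1, the partner of PES1 in that complex, was lower by adjusted p alone. BOP1 had 5.55, 6.61, 5.87, 5.89 and 5.89 at 500 µM, against 6.21, 6.48 and 6.73 in vehicle, a change of -0.52 (adjusted p = 0.00137). Number 3 of the dosed arrays lay within the vehicle range. The BOP1 step from 300 to 500 µM was -0.75 (adjusted p = 2.32e-05), the 1 step called lower among members, and it was not called when the probe sets of each gene were averaged. Over all genes 8.17% were called higher and 10.5% lower between these doses, and 3 members were higher: BYSL, UTP15 and NOP2.

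Genes of RNA polymerase I transcription gave the highest role median at 500 µM MMS, 0.64, and 3 of the 5 rose. POLR1A, the largest catalytic subunit, had 5.53, 5.67, 5.91, 5.55 and 5.87 at 500 µM, against 4.26, 5.01 and 5.28 as lowest, median and highest in vehicle. It rose by 0.82 (SE 0.16, adjusted p = 1.80e-05) and had already risen by 0.91 at 300 µM (adjusted p = 6.06e-06), where its values lay between 5.62 and 5.93. The POLR1A groups did not overlap at either dose, and the step between the doses was not called. POLR1B, the other large subunit of the enzyme core, had 9.85, 9.78, 9.79, 10.15 and 9.98 at 500 µM, against 9.17, 9.28 and 9.35 in vehicle. It rose by 0.64 (SE 0.07, adjusted p = 3.82e-11), and its 4 probe sets gave 0.94, 0.76, 0.64 and 0.86, all called. Without number 5 its change was 0.57, just under the limit. TCOF1, or treacle, which links polymerase I to rRNA genes and is mutated in Treacher Collins syndrome, rose by 0.64 at 500 µM and by 0.65 at 300 µM. The other 2 TCOF1 probe sets gave 0.59 and -0.08 at 500 µM, and the change was 0.57 without number 5 or dosed number 3.

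The modification and abundant nucleolar groups had the lowest role medians. NOP56, a core protein of box C/D particles, had 11.01, 11.08, 11.08, 10.32 and 10.86 at 500 µM MMS, against 9.30, 10.24 and 10.42 in vehicle. It rose by 0.80 (SE 0.21, adjusted p = 0.00129), the only one of the 14 called members whose groups overlapped. How many of all called genes overlapped was not counted, so that count describes the members only. FBL, fibrillarin, the rRNA ribose methyltransferase of the same particles, had 9.80, 10.19, 10.10, 10.23 and 10.14, against 10.36, 10.51 and 10.67 in vehicle. FBL was below its vehicle range in every dosed array, yet its change of -0.41 (adjusted p = 1.28e-07) was under the fold limit. NOLC1, a chaperone of small nucleolar ribonucleoproteins, rose by 0.73. NCL, nucleolin, an abundant nucleolar RNA-binding protein, changed by 0.08 (adjusted p = 0.479), and the probe set used for NPM1, nucleophosmin, a nucleolar protein involved in assembly and transport, changed by -0.09 (adjusted p = 0.0295). The other 2 NPM1 probe sets gave -0.18 and -0.65, and the last was called lower (adjusted p = 1.72e-14). The median of the 4 abundant nucleolar genes was 0.00, against 0.21 for the modification group, 0.54 for small subunit and 0.50 for large subunit factors. The members not called lay between BOP1 at -0.52 and RRP9, a protein of the U3 particle, at 0.58, with WDR3, another processome subunit, and RRS1, a regulator of large subunit assembly, both at 0.54.

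Other transcripts moved at this dose too. Of 11 measured housekeeping genes, 1 was called higher and 2 lower at 500 µM MMS, with a median of -0.20. Of 9 mesenchymal markers 7 were called lower: SPARC averaged 9.64 at 500 µM and 11.60 in vehicle, and COL1A1 2.64 and 6.06. Their part in the result was not tested.

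**Figure D2:**
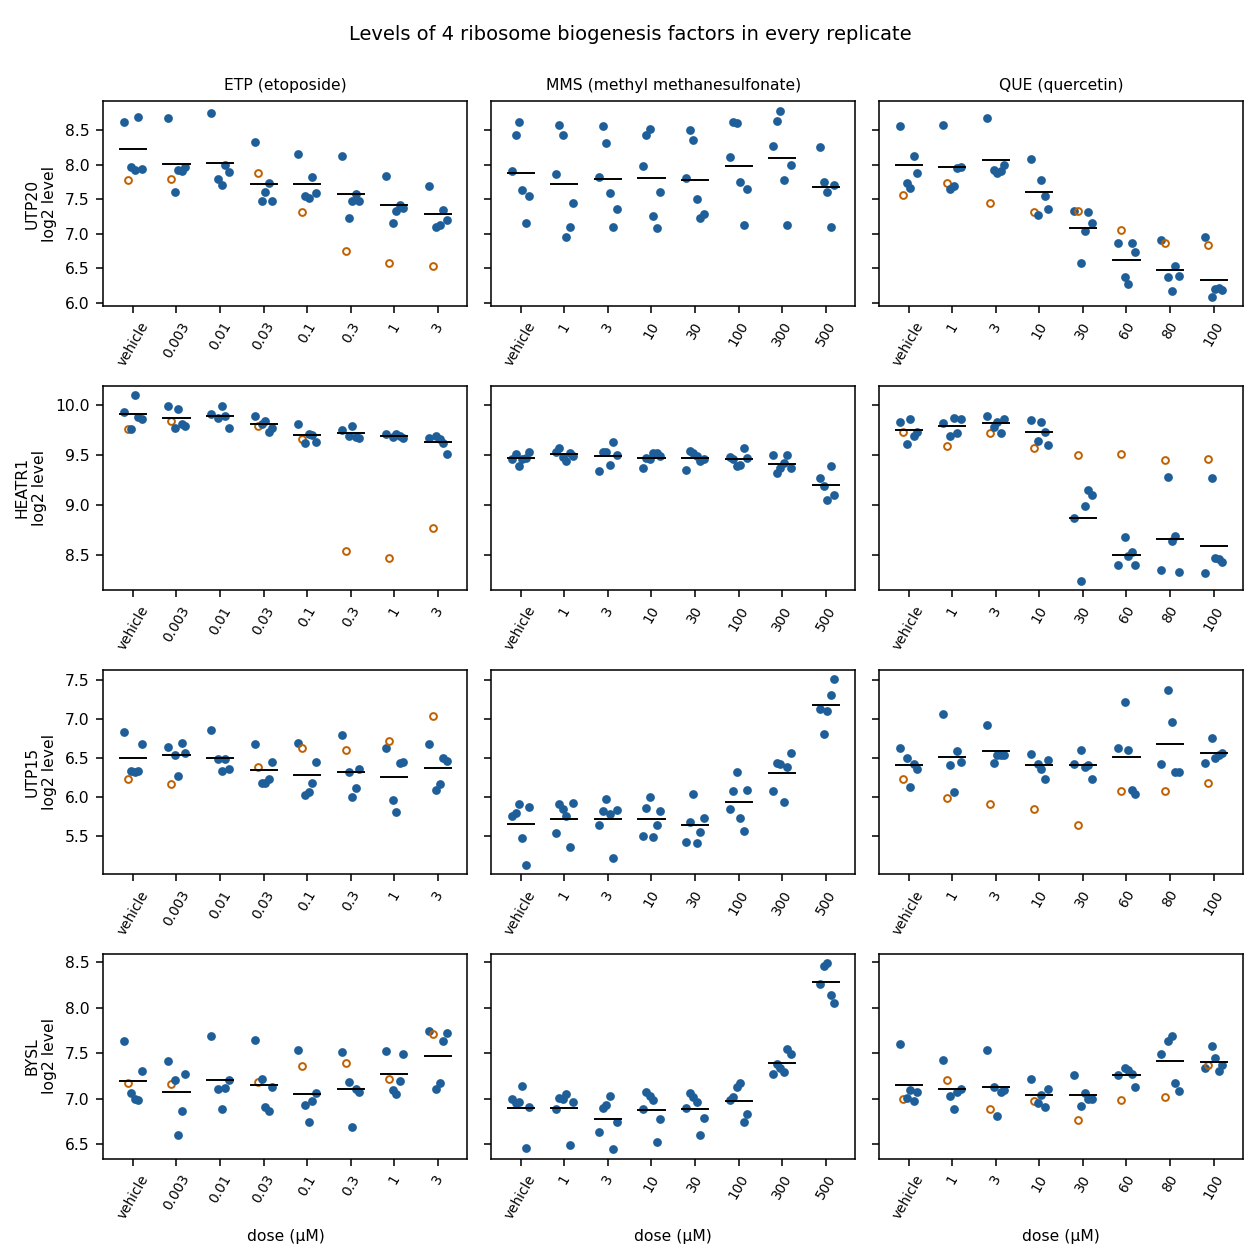
Log2 value of UTP20, HEATR1, UTP15 and BYSL in every array by dose (µM, vehicle at the low end) of ETP, MMS and QUE. Filled points are the arrays used, bars their mean, and open orange circles the arrays numbered 2 that were left out. UTP15 and BYSL at 500 µM MMS lie above all their vehicle arrays, and UTP20 at 100 µM QUE lies between 6.09 and 6.95, below its vehicle range of 7.66 to 8.56.

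With QUE most calls among the members were downward, and UTP20, HEATR1 and UTP18 of the small subunit processome were lower from 30 µM on. At 100 µM 6 of 39 members fell and 1 rose, where 14.5% of all genes were called lower and 13.1% higher. At 30 µM 6 fell (8.64% of genes lower), at 60 µM 7 fell (12.7%), and at 80 µM 5 fell and 1 rose (13.1% lower and 11.4% higher). At 10 µM 1 rose (1.11% of genes higher), and at 1 and 3 µM none was called (0.0331% and 0.0911% of genes in either direction). The share of members called lower at 100 µM was thus near that of all genes. The members' median change at 100 µM was -0.12, against 0.00 over all genes. With the number 2 arrays kept, the counts lower were 5, 6, 4 and 5 at 30, 60, 80 and 100 µM (5.44%, 9.17%, 10.3% and 11.9% of genes), and none was higher at any dose. Of 12070 genes 666, 1166, 1053 and 1277 were then called higher from 30 to 100 µM. Of the 9 mesenchymal markers 3 were called lower at 100 µM QUE: COL1A1 at -2.35, TWIST1 at -1.04 and S100A4 at -0.76. Of the 11 housekeeping genes 0 were called higher and 1 lower, with a median of -0.08. Their part in the result was not tested.

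The processome scaffolds UTP20 and HEATR1 fell the furthest of the members. UTP20 had 6.95, 6.09, 6.20, 6.21 and 6.19 at 100 µM QUE, against 8.56, 7.73, 7.66, 8.13 and 7.88 in vehicle. The groups did not overlap, and number 1 was the highest in both. UTP20 fell by 1.66 (SE 0.20), which is 3.17-fold lower, with an adjusted p of 2.91e-08. It averaged 7.09, 6.62, 6.48 and 6.33 at 30, 60, 80 and 100 µM, against 7.99 in vehicle, and was called at all 4 doses, from an adjusted p of 0.000607 at 30 µM. The step from 30 to 100 µM was -0.76 (adjusted p = 0.0181), the only step called among members (2.55% of genes were called lower). That call was lost without number 4, 5 or 6, where 0 members were called lower, and without number 3 the count was 3. With the number 2 arrays kept, UTP20 at 100 µM gave -1.51.

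HEATR1, the human counterpart of yeast UTP10 and a large subunit of the early processome complex, had 8.32, 9.27, 8.47, 8.46 and 8.43 at 100 µM QUE, against 9.83, 9.61, 9.86, 9.69 and 9.73 in vehicle. All dosed arrays were below all vehicle arrays, with number 3 the nearest. HEATR1 fell by 1.16 (SE 0.15), or 2.23-fold, with an adjusted p of 1.09e-07, and its 4 probe sets gave -1.03, -1.16, -1.07 and -1.60, all called. It was down by 0.88, 1.24 and 1.09 at 30, 60 and 80 µM. UTP18 had 9.43, 9.17, 8.89, 8.97 and 8.94 at 100 µM, against 10.46, 10.25, 10.16, 10.17 and 10.12 in vehicle. It fell by 1.15 (SE 0.18, adjusted p = 1.84e-06), without overlap, and by 0.77, 1.10 and 1.07 at 30, 60 and 80 µM, the first lost without number 3 (-0.50). WDR75 had 8.63, 8.99, 9.13, 9.01 and 8.97 at 100 µM, against 9.60, 9.45, 9.49, 9.58 and 9.54 in vehicle. Its change of -0.59 (SE 0.10, adjusted p = 1.10e-05) was just past the fold limit, and the call was lost at -0.51 without dosed number 1, at -0.57 without vehicle number 1 or 5, and at -0.46 with the number 2 arrays kept.

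In the same role some members went the other way or kept near vehicle. UTP14A, known from yeast as an activator of the helicase that releases the U3 small nucleolar RNA, had 9.55, 10.48, 10.08, 9.82 and 9.85 at 100 µM QUE, against 9.39, 9.26, 9.27, 9.36 and 9.32 in vehicle. It rose by 0.63 (SE 0.18, adjusted p = 0.00339), with no overlap. The call rests on number 3: without it the change was 0.49 to 0.50 and not called, and with the number 2 arrays kept it was 0.55 and not called. DDX10 rose only at 10 µM QUE, where it had 9.33, 9.82, 9.28, 9.30 and 9.24 against 8.88, 8.87, 8.75, 8.51 and 8.65 in vehicle. That change was 0.66 (SE 0.11, adjusted p = 0.000236), while at 30, 60, 80 and 100 µM it was 0.49, 0.38, 0.27 and 0.35. With the number 2 arrays kept the 10 µM change was 0.50 (adjusted p = 0.104). NOC4L, the partner of NOP14 in small subunit assembly, fell at 30 µM by 0.72 (adjusted p = 0.00514) and at 60 µM by 0.82, but its changes of -0.42 and -0.51 at 80 and 100 µM were not called.

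The 5 RNA polymerase I members had the lowest role median at 100 µM QUE, -0.31, against -0.08 for the modification group, 0.14 for small subunit factors, -0.14 for large subunit factors and -0.17 for abundant nucleolar proteins. POLR1B had 8.90, 8.25, 8.67, 8.74 and 8.91 at 100 µM, against 9.58, 9.65, 9.68, 9.59 and 9.52 in vehicle. It fell by 0.91 (SE 0.15, adjusted p = 5.56e-06) without overlap, and its 4 probe sets gave -0.99, -0.75, -0.91 and -0.27. MYBBP1A, a nucleolar MYB-binding protein that is known to repress rRNA transcription, had 6.43, 5.70, 5.80, 5.77 and 5.75, against 7.00, 6.62, 6.76, 6.37 and 6.57 in vehicle. It fell by 0.77 (SE 0.16, adjusted p = 0.000133), though number 1 of the dosed arrays lay within the vehicle range and its other probe set gave 0.25. POLR1A changed by -0.31 (adjusted p = 0.19). None of the large subunit, modification or abundant nucleolar members was called at 100 µM: FBL changed by -0.05, NPM1 by 0.05 and NCL by -0.27 (adjusted p = 0.0339). The probe set that stood for NOP56 gave -0.12, while its other set, at -0.85, was called. For RRP1B the set used gave 0.14 and the other 1.01, also called. The set used for DKC1 gave -0.41 and the other 2 gave -0.50 and -0.59, the last of them called lower (adjusted p = 0.00637). The members not called lay between NOC4L at -0.51 and NOP2 at 0.54, with NOP14, the partner of NOC4L, at 0.50, NOC3L at 0.45 and NOP58 at 0.44.

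**Figure D3:**
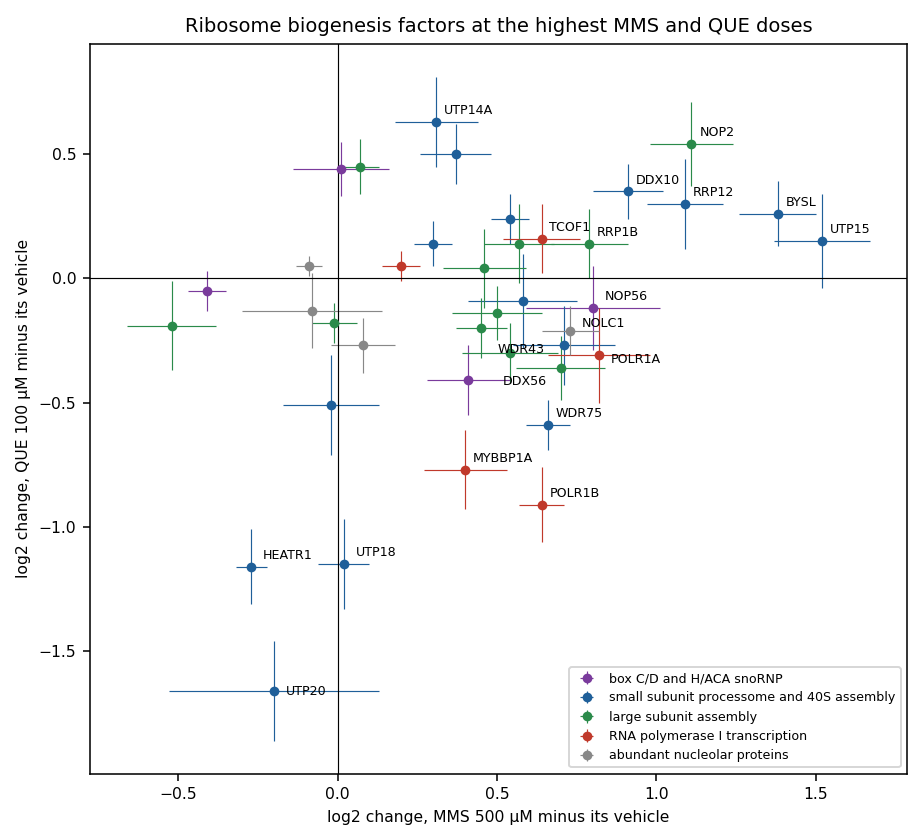
Change in log2 value of each of the 39 members at 500 µM MMS (x axis) against the change at 100 µM QUE (y axis), each dosed minus its own vehicle, with bars of ±1 SE. POLR1B and WDR75 lie to the right and below 0, at 0.64 and -0.91 and at 0.66 and -0.59, and UTP20 lies lowest at -1.66.

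With ETP the members called past the fold limit were UTP20 and UTP18, both also among the 6 that fell at 100 µM QUE. At 3 µM 2 of 39 members fell, where 6.92% of all genes were called lower and 6.25% higher. The share of members called lower there was near that of all genes. At 1 µM 1 fell (3.73% of genes lower), and at 0.3 µM 1 fell (1.53% lower). No member was called at 0.003, 0.01, 0.03 or 0.1 µM (0%, 0%, 0.63% and 3.74% of genes in either direction). An unadjusted p under 0.05 was reached there by 0, 0, 6 and 18 members, and by 118, 208, 1950 and 3321 of the 12070 genes. Keeping the number 2 arrays, 0 and 10 members reached it at 0.03 and 0.1 µM, and 710 and 1910 of the 12070 genes. UTP20 had 7.69, 7.10, 7.12, 7.34 and 7.20 at 3 µM ETP, against 8.62, 7.96, 7.92, 8.68 and 7.94 in vehicle. The groups did not overlap, and UTP20 fell by 0.94 (SE 0.20), or 1.91-fold, with an adjusted p of 0.000304. Its changes were -0.65 at 0.3 µM (adjusted p = 0.0205) and -0.81 at 1 µM (adjusted p = 0.00211). At 0.3 µM the groups overlapped, and the call was lost without number 5 (-0.53, adjusted p = 0.179) or number 6 (-0.70, adjusted p = 0.072).

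UTP18 had 9.81, 9.73, 9.59, 9.57 and 9.69 at 3 µM ETP, against 10.44, 10.29, 10.30, 10.07 and 10.34 in vehicle. Every dosed array was below every vehicle array. UTP18 fell by 0.61 (SE 0.07, adjusted p = 1.41e-08), which is 1.52-fold. The call was lost at -0.58 without number 4 or dosed number 5 and at -0.57 without vehicle number 1, where 1 member was left. With the number 2 arrays kept UTP18 was also called at 1 µM, which made 2 members there (2.75% of genes lower). With them 1 member was lower at 0.3 µM (0.82%) and 2 at 3 µM (6.21%). FBL, the fibrillarin gene, had 10.43, 10.48, 10.50, 10.44 and 10.56 at 3 µM, against 11.07, 10.94, 11.07, 10.78 and 11.03 in vehicle. The FBL groups did not overlap and the change was -0.49 (SE 0.06, adjusted p = 1.89e-08), or 1.41-fold, short of the fold limit. Smaller still were HEATR1 at -0.28 (adjusted p = 0.0001) and NCL at -0.23 (adjusted p = 0.0461). DKC1, dyskerin, the pseudouridine synthase of box H/ACA particles, changed by -0.46 (adjusted p = 0.0183). The members not called at 3 µM lay between FBL at -0.49 and WDR43 at 0.44.

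Counted on adjusted p alone, the small downward changes with ETP reached more members. They were 5 lower at 0.1 µM (8.08% of genes), 9 at 0.3 µM (8.72%), 8 at 1 µM (14.7%), and 7 lower and 1 higher at 3 µM (20.5% of genes lower and 20.9% higher). Those counts were 2, 5, 7 and 4 lower with the number 2 arrays kept, at 0.1, 0.3, 1 and 3 µM (1.67%, 3.89%, 9.46% and 15.9% of genes). The 1 higher was WDR43, at 0.44 (adjusted p = 0.00769). At 0.1 µM 36 of the 39 members were below 0, with a median of -0.16 against 0.01 over all genes. The median was -0.13 at 0.03 and 0.3 µM, -0.06 at 1 µM and -0.03 at 3 µM. Over the modification group of 4 it stayed at -0.36, -0.38, -0.37 and -0.33 at 0.1, 0.3, 1 and 3 µM. With the replicate number as a block, which the arrays of this experiment allow, adjusted p alone gave 13 lower at 0.03 µM (10.2% of genes). At 0.1 µM it gave 22 lower and 1 higher (18.9% of genes lower and 18.5% higher), and at 0.3 µM 15 and 1 (19.9% and 23.1%). At 1 µM it gave 16 lower and 2 higher (25.0% and 28.3%), and at 3 µM 14 lower and 9 higher (29.5% and 30.2%). The block added 1 call past the fold limit, LYAR at 0.1 µM, a nucleolar zinc-finger protein. LYAR had 10.36, 9.36, 9.56, 10.05 and 9.77 at 0.1 µM, against 10.87, 10.14, 10.25, 10.65 and 10.38 in vehicle. The groups overlap, while each array lies below the vehicle array of its own number, and the change of -0.64 had an adjusted p of 0.11 without the block and 5.52e-06 with it (2.63% of genes were called lower there). LYAR, WDR43 and DKC1 were singled out after their values were seen.

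**Figure D4:**
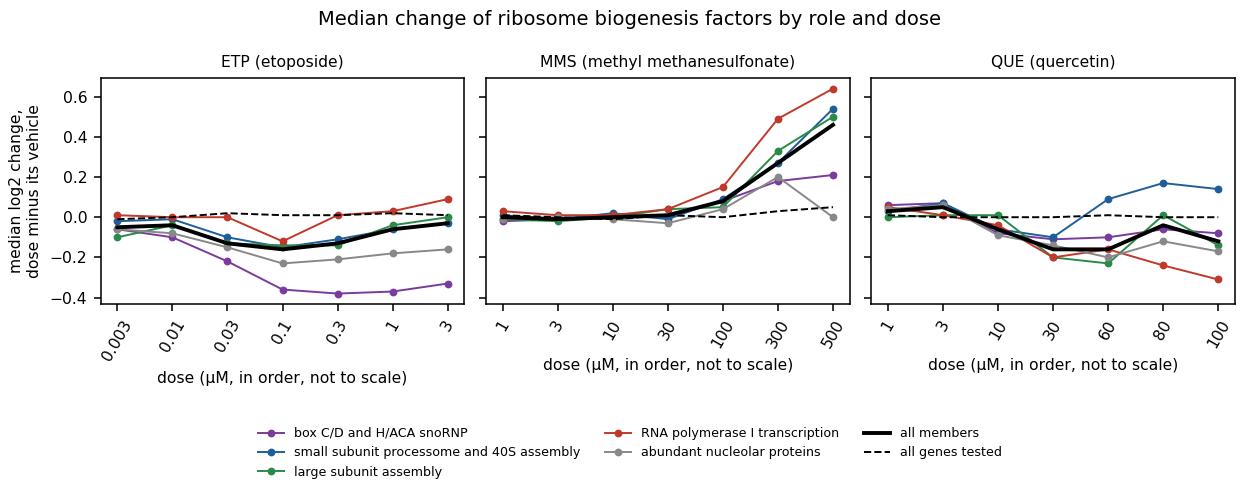
Median change in log2 value over the members of each role (dosed minus vehicle) at each dose (µM) of ETP, MMS and QUE. At 500 µM MMS the RNA polymerase I genes reach 0.64 and the abundant nucleolar genes 0.00, and with ETP the modification group lies between -0.38 and -0.33 from 0.1 to 3 µM.

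Across the whole dose range, limma's F test over the 7 doses was passed by 29 of 39 members with MMS (59.3% of genes), 20 with QUE (56.8%) and 9 with ETP (38.3%). Keeping the number 2 arrays, 17 passed with QUE (48.0% of genes) and 6 with ETP (25.9%). With ETP the block gave 32 members (68.3% of genes). In all, 20 members were called at some dose of some chemical, 19 at none, and 0 for all 3 chemicals. The matching shares of all genes were not counted, so these counts describe the members only. The 19 include the modification genes FBL, NOP58 and DKC1 and the abundant nucleolar genes NCL and NPM1.

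The responses to the highest doses were set against each other as differences of differences. Since array medians differ between the experiments, each response is taken against its own vehicle, and each pair below shares a chemical's arrays with another pair. For MMS minus QUE 20 members were called higher and 0 lower, where 14.5% of genes were called higher and 1657 of 12070 lower. POLR1B gave 1.55 (SE 0.14, adjusted p = 2.13e-17), from a change of 0.64 with MMS and -0.91 with QUE. UTP20 gave 1.46, UTP15 1.37 and WDR75 1.25 (adjusted p = 3.65e-18), followed by MYBBP1A and UTP18 at 1.17. POLR1B and WDR75 were the 2 members called in opposite directions, higher with MMS and lower with QUE. For ETP minus MMS 0 members were higher and 14 lower, where 1886 of 12070 genes were called higher and 14.9% lower. UTP15 was the furthest at -1.64 (adjusted p = 4.6e-09), then BYSL at -1.10 and DDX10 at -0.99.

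For ETP minus QUE 5 members were higher and 2 lower, where 12.8% of genes were called higher and 10.7% lower. POLR1B gave 1.04 (adjusted p = 3.44e-09), HEATR1 0.88 (adjusted p = 9.43e-08), MYBBP1A 0.87, WDR75 0.74 and WDR43 0.71. NOP58, another core protein of box C/D particles, gave -0.65 and NOC3L, a large subunit factor, -0.63. UTP20 and UTP18, lower with both chemicals, were not among the 7. These differences rest on leaving out the number 2 arrays: with them kept, 0 members and 1 of the 12070 genes (0.00829%) were called.

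The other genes of the pathway, 109 measured of a list of 111, also rose more often than they fell at the highest MMS dose. At 500 µM MMS 37 of 109 rose and 2 fell, where 17.7% of all genes were higher and 16.9% lower, among them 5 of 13 further polymerase I genes, 14 of 38 small subunit, 15 of 38 large subunit, 2 of 12 RNA exosome and 1 of 8 modification genes. At 300 µM MMS 5 rose (4.46% of all genes). On adjusted p alone 59 rose and 0 fell there (19.6% of all genes higher and 2041 of 12070 lower). ZNF622, a factor of late large subunit maturation, rose by 1.45, REXO4, a nucleolar exonuclease family protein, by 1.31, and RIOK2, a kinase of the last steps of small subunit maturation, by 1.28. The 2 lower were TBL3, a processome subunit, at -0.98, and WDR18, known from large subunit maturation, at -0.94. At 100 µM QUE 14 of 109 rose and 6 fell, where 13.1% of all genes were called higher and 14.5% lower, so the count of rises was near that of all genes. The 13 further polymerase I genes had a median of 0.29, with 11 above 0, 2 called higher and 0 lower, while the 5 members of that role had a median of -0.31. RCL1, a processome-bound protein of the cyclase family, rose by 1.46 (adjusted p = 5.03e-06), RIOK2 by 1.03 and REXO4 by 0.94. EMG1, a pre-rRNA methyltransferase, fell by 1.10, and the exosome subunits EXOSC8 and EXOSC2 by 0.84 each. Of the 12 exosome genes 4 fell and 1 rose with QUE.

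With 3 µM ETP 3 of the 109 fell and none rose (6.92% and 6.25% of all genes), and those were the exosome subunits EXOSC8 at -0.96 (adjusted p = 2.6e-11) and EXOSC9 at -0.75 (adjusted p = 3.37e-06), and DDX51, a helicase of large subunit assembly, at -0.61. MYC itself averaged 8.27 ± 0.22 at 3 µM ETP and 8.84 ± 0.22 in vehicle (SD, n = 5 each), a change of -0.57 that was 1.48-fold and under the limit. It averaged 9.56 ± 0.41 at 100 µM QUE and 8.78 ± 0.30 in vehicle (SD, n = 5 each), and rose by 0.78 in limma's fit (adjusted p = 0.00053), a call lost with the number 2 arrays kept. At 500 µM MMS MYC averaged 9.57, against 9.16 in vehicle, a change of 0.41 under the fold limit.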

How the data were processed

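Each of 145 arrays held 1 RNA sample of HT-1080 cells. RNA was labelled with biotin for 3′ expression arrays with perfect-match probes, per the labels' protocols. The deposited values are log2 probe set intensities that the authors normalised with GCRMA in Partek, per the submitters' processing notes. Versions, genome build and annotation are not given in the sources used here. Array medians differ between the chemicals, so no level was set across chemicals and every change is taken against the matching DMSO group. Array number limits the precision.

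Of 54613 probe sets, 40914 were paired with 1 symbol, 864 with several and 12835 with none. Symbols were updated through the gene tables. After the filter 27102 probe sets were kept. Of these 4337 had no single symbol and were not named, and the rest stood for 12070 genes. Groups came from the titles and characteristics, and no value column was left unused. For each chemical limma 3.58.1 (R 4.3.3) fitted 8 groups with lmFit and eBayes with a trend, and p-values were adjusted over all genes. Steps between doses were contrasts of that fit. Differences between responses were contrasts of 1 fit over the groups of all 3 chemicals, each response being dose minus its own vehicle. Python 3.11.15 made tables and figures. The scripts were tested on simulated data.

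The members, roles and gene lists were chosen with earlier results of these data known. The genes named were up to 4 called members in each direction, by size of change, at each highest dose, those called in opposite directions, every call where 5 or fewer members were called, and UTP20, FBL, NCL, NPM1, POLR1A and POLR1B. Of the other pathway genes they were the 3 largest calls each way, and MYC. Any others were chosen after their values were seen.

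Replicate numbers pair the arrays where every pair of same-numbered arrays deviated together (r over 0.1). This held at all ETP doses, at 1 to 300 µM MMS and at 1 to 30 µM QUE. It failed at 500 µM MMS (lowest r -0.01) and at 60 to 100 µM QUE (lowest 0.06 and 0.07). The mean r for the same number was 0.52, 0.51 and 0.34 in ETP, MMS and QUE, against -0.12, -0.10 and -0.07 for other numbers. Alternatives were the replicate block, the number 2 arrays kept, another fold limit, the mean of probe sets, stricter filters, quantile normalisation, a fit of 1 dose with its vehicle, and leaving out each replicate.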

Additional observations from a re-analysis of the deposited data

Results flagged for a closer look

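At 100 µM QUE number 3 of HEATR1 was 9.27, while the other 4 arrays lay between 8.32 and 8.47. Number 1 of UTP20 was 6.95 in that group, against 6.09 to 6.21 in the others. Number 5 of WDR75 at 500 µM MMS was 9.87, against 9.64 to 9.68. In the QUE vehicle group number 1 stood above the rest for BYSL, at 7.60 against 6.97 to 7.09, and for NOP2, at 8.36 against 7.70 to 7.84. In the MMS vehicle group number 5 of BYSL was 6.45, below the others at 6.91 to 7.14. Each of these 6 single arrays lay far from its group, out of 96 groups examined by the same criterion, and chance marks about 1 in 20 groups.

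The ETP and QUE arrays numbered 2 were outside the comparisons and carried changes of their own, each taken against the vehicle value of number 2. At 3 µM ETP the change was -0.99 for HEATR1 (the other pairs gave -0.44 to -0.06), -0.67 for POLR1B (0.05 to 0.23) and -1.15 for UTP18 (-0.72 to -0.49). It was 0.56 for UTP14A (-0.01 to 0.37) and -0.29 for WDR75 (0.07 to 0.27). At 100 µM QUE the number 2 change was -0.27 for HEATR1 (-1.51 to -0.34 in the other pairs), 0.17 for POLR1B (-1.40 to -0.62) and 0.13 for UTP14A (0.16 to 1.21). It was -0.67 for UTP18 (-1.27 to -1.02), -0.72 for UTP20 (-1.92 to -1.46) and 0.19 for WDR75 (-0.97 to -0.36). These 11 changes lie outside the range of the other pairs, and they are not all that do. At 3 µM ETP number 2 also gave -1.10 for MYBBP1A (0.01 to 0.23) and -0.09 for FBL (-0.64 to -0.34). At 100 µM QUE it gave -0.61 for FBL (-0.35 to 0.17). Some changes lay within the range, such as UTP20 at 3 µM ETP, where number 2 gave -1.24 and the other pairs -1.34 to -0.74. The cause was not tested.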

How the results depend on the processing

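No called result changed direction under the alternatives run. With a fold limit of 2 the members called lower were 0, 0 and 0 at 0.3, 1 and 3 µM ETP, and 0, 3, 3 and 3 at 30, 60, 80 and 100 µM QUE. With that limit 0 and 4 were higher at 300 and 500 µM MMS, and 0 at 10, 80 and 100 µM QUE. The share of all genes was not counted at a fold limit of 2, so these counts cannot be set against it. With no fold limit 5, 9, 8 and 7 were lower at 0.1, 0.3, 1 and 3 µM ETP, and 1 was higher at 3 µM. With none, 19 and 27 were higher at 300 and 500 µM MMS and 4 lower at 500 µM. For QUE it gave 3, 4, 6 and 7 higher at 30, 60, 80 and 100 µM, and 11, 8 and 11 lower at 60, 80 and 100 µM. Of all 12070 genes 2171, 2986, 2833 and 3112 were higher and 2733, 2762 and 2977 lower at those doses.

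With the number 2 arrays kept, 2 members were lower at 1 µM ETP, 0 were higher at 10, 80 and 100 µM QUE, and 0 were called higher and 0 lower for ETP minus QUE. Of the other pathway genes 1 and 2 were then lower at 0.1 and 1 µM ETP, and 2, 7 and 7 higher at 30, 60 and 80 µM QUE. With the replicate block 1 member was lower at 0.1 µM ETP and 32 passed the ETP F test. The block with all arrays kept, added after seeing the data, gave 2 lower at 1 µM ETP, 0 higher at 10, 80 and 100 µM QUE, 2 higher and 0 lower for ETP minus QUE, and 18 in the ETP F test. Of the other pathway genes it gave 1 and 2 lower at 0.1 and 1 µM ETP and 2 and 7 higher at 30 and 80 µM QUE. The block moved no other count of members past the 1.5-fold limit by over 1.5 times, and at 500 µM MMS it added PES1, at 0.60. On adjusted p alone it gave 7 higher at 60 µM and 13 lower at 80 µM QUE, where 3522 of 12070 genes were higher and 3379 lower, respectively. Replicate numbers did not pair the arrays at 500 µM MMS or at these QUE doses.

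Averaging the probe sets of a gene left 0 members lower between 300 and 500 µM MMS and a median of 0.37 at 500 µM. A fit of each dose with its vehicle alone gave 1 lower at 0.1 µM ETP, and quantile normalisation gave 1 at 3 µM ETP. These causes were not tested.

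Without 1 replicate the count lower was 0 to 1 at 0.1 and 0.3 µM ETP, 1 to 2 at 3 µM ETP and 0 to 1 at 500 µM MMS. The count higher was 2 to 5 at 300 µM MMS, 2 of them without number 5, and 12 to 17 at 500 µM. It was 0 to 1, 0 to 2 and 0 to 3 at 60, 80 and 100 µM QUE, with 0 at 100 µM without number 3. From 30 to 100 µM QUE 0 to 1 were higher and 0 to 3 lower. ETP minus QUE gave 1 to 3 lower, ETP minus MMS 0 to 1 higher, and the ETP F test 4 to 12. The QUE median at 100 µM was -0.19 to 0.02. Of the other pathway genes 0 to 1 were lower at 0.3 µM ETP, 3 to 6 higher at 300 µM MMS and 3 to 7 lower at 80 µM QUE.

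Among single genes 1670 values kept their state, called or not called, while 67 lost a call and 15 gained one. The 1670 include values with no call to lose. The settings without a filter, with a filter at 6, without a variance trend and without the arrays titled nf or o moved no count by over 1.5 times. No detection calls came with these values, so signal over background was set only by the limit of 4.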
